A study of Mus musculus with 12 samples.

Results

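Slc2a1, Slc2a3, Hk1, Hk2, Pfkp, Aldoa, Pgk1, Eno1, Pkm and Ldha carry glucose into the cell and through glycolysis to lactate. These 10 genes were followed through 12 RNA-seq libraries of sorted mouse T cells labelled as regulatory T cells (Tregs). They were taken as the rows of the deposited count table whose Ensembl identifiers map to these 10 symbols. They are 10 of 21839 genes in the table, and all 10 were among the 11766 genes that passed the filter on low counts. The cells were CD4+ T cells, positive for a further surface marker, from spleen and from inguinal, cervical and brachial lymph nodes of C57BL/6 mice, sorted for high or low surface CD25. CD25 is the alpha chain of the interleukin-2 receptor and is encoded by Il2ra. All mice were Atg5 flox/flox, so that Cre recombinase can remove Atg5, a gene needed for autophagy. TG mice were also CD11c Cre +/-, which directs Cre to cells that express CD11c, mainly dendritic cells. WT mice were their littermates without the transgene, CD11c Cre -/-. The 4 groups were TG High, WT High, TG Low and WT Low, with 3 libraries each, and each group had replicate numbers 1, 2 and 3. The Cre was not directed at the sorted T cells, and the labels name no Foxp3 stain in the sort. The sources used here do not give age, sex or the number of animals behind a library, so the p-values reflect the spread between these libraries and no more.

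Glycolysis splits glucose into pyruvate, and many cells then reduce the pyruvate to lactate. Resting T cells take up little glucose, while activated and dividing T cells raise both uptake and glycolytic enzymes under the control of mTOR, Myc and the hypoxia-inducible factor Hif1a. In Tregs, Foxp3 is known to restrain glycolytic genes, and glycolysis is linked to Treg proliferation and migration.

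Total counts per library ran from 6767828 in TG High replicate 2 to 23942479 in WT High replicate 2. Levels below are CPM, counts relative to the library size, after TMM scaling. The 9 Treg markers together stood at 6407 to 7165 CPM in the 6 CD25 High libraries and at 3922 to 4716 CPM in the 6 CD25 Low libraries. Il2ra ranged from 1072 to 1309 CPM in High and from 481 to 734 CPM in Low, and Foxp3 from 1412 to 1662 CPM in High and from 983 to 1193 CPM in Low. Atg5 was at 32.03 to 41.55 CPM in all 12, and since the deletion is directed at other cells this level is no check of the genotype labels. The 4 libraries numbered 1 stood apart from the other 8 on the first principal component, which held 53.2% of the variance. In them 10 B cell markers summed to 201 to 360 CPM, against 34.2 to 96.3 CPM in the other 8. The 20 cell cycle genes summed to 1323 to 1905 CPM in the libraries numbered 1, against 765 to 920 CPM in the other 8. The labels do not say what the numbers mark. Libraries of the same number varied together, so results come from a fit without the number and from a fit that holds it constant as a block.

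The 10 genes took 0.2423% to 0.2879% of the counts of a library, and summed to 2400 to 2935 CPM. To compare genes, CPM was divided by the summed exon length in kilobases, a scale on which Ldha led and Hk2 was lowest. Ldha, which makes the muscle-type subunit of lactate dehydrogenase and turns pyruvate into lactate, averaged 232.4 CPM per kb over the 12 libraries. Its range of 196.0 to 263.9 CPM per kb lay above that of every other gene of the 10. Pkm, which encodes pyruvate kinase, averaged 110.9 CPM per kb, and Aldoa, which encodes the aldolase that splits fructose 1,6-bisphosphate, averaged 108.9 CPM per kb. The ranges of Pkm and Aldoa overlapped, at 96.3 to 130.9 and 87.6 to 126.4 CPM per kb. Eno1, the main enolase of most tissues, averaged 41.5 CPM per kb and ranged from 37.5 to 46.3.

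Below these came Hk1, the hexokinase that most resting tissues use, at a mean of 31.8 CPM per kb, and the glucose transporter genes. Slc2a3 encodes GLUT3, a high-affinity transporter of neurons and leukocytes, and averaged 30.6 CPM per kb. Slc2a1 encodes GLUT1, the transporter that T cells raise on activation, and averaged 25.1 CPM per kb. The ranges of these 3 genes overlapped, at 28.1 to 37.1 for Hk1, 25.3 to 39.0 for Slc2a3 and 20.7 to 30.7 for Slc2a1, and the range of Slc2a3 reached into that of Eno1. Pfkp, the platelet-type phosphofructokinase, averaged 15.9 CPM per kb, with a range of 14.6 to 17.4 that touched no other on this scale. The scale takes in all annotated exons, 13401 bases for Pfkp, while its longest coding transcript has 4145 bases. For Slc2a1 these lengths are 3506 and 3260 bases, so the place of Pfkp below Slc2a1 depends on the length used. Pgk1, which makes the first ATP of the chain as phosphoglycerate kinase, averaged only 2.88 CPM per kb. Hk2, the inducible hexokinase of activated T cells and of muscle, averaged 0.372 CPM per kb, from 0.137 to 0.657, on 15 to 74 counts per library. The levels of a gene varied little between libraries: the highest library was 1.19 times the lowest for Pfkp and 1.71 times for Pgk1, the widest of the 9 genes other than Hk2, for which it was 4.80 times.

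**Figure D1:**
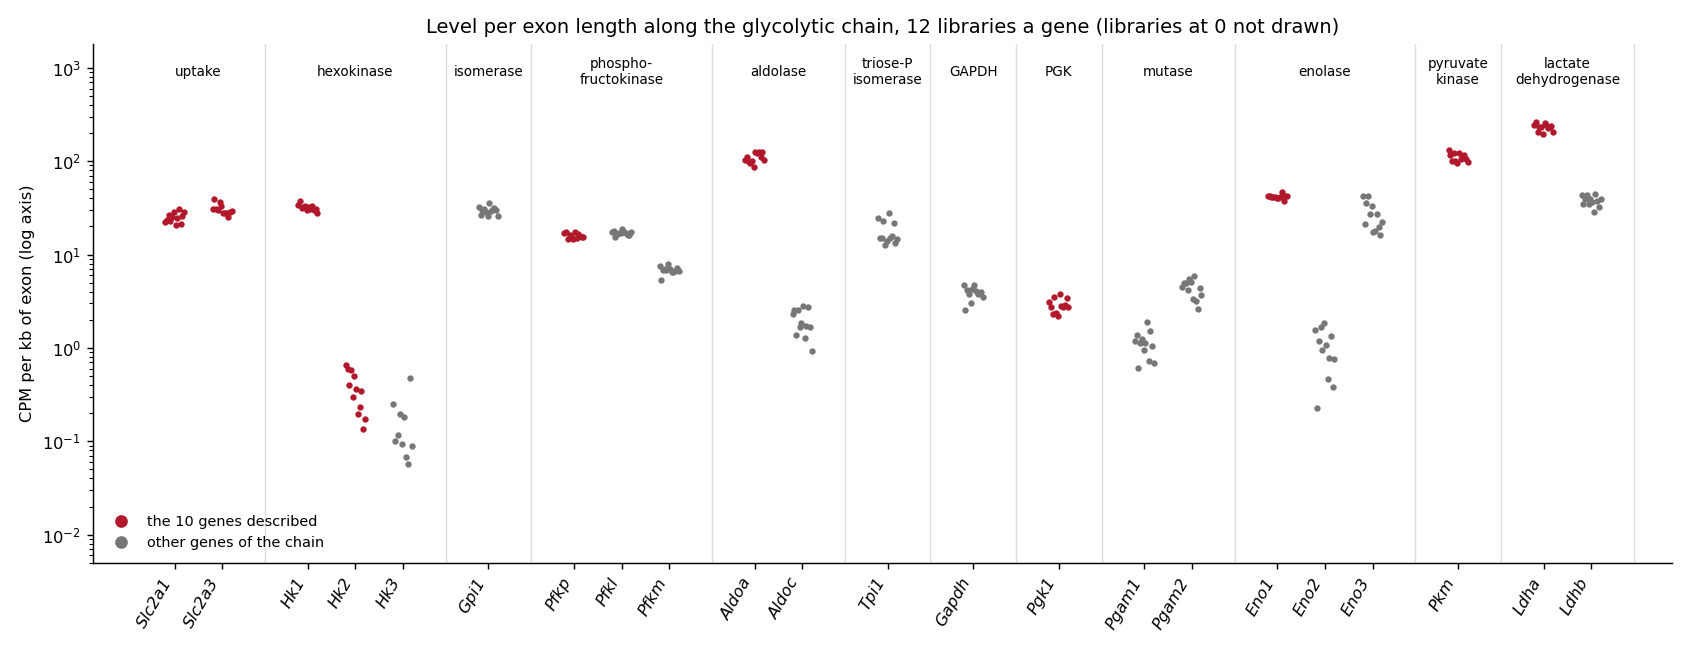
Level of each gene of the glycolytic chain, in TMM-scaled CPM per kb of exon on a log axis, in order from glucose uptake to lactate; each point is 1 of 12 libraries. Ldha, Pkm and Aldoa stand highest among the 10 genes described, while Hk2 and Pgk1 stand lowest of them.

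Some of the 10 genes share sequence with other genes. Of the 50-base windows in the longest coding transcript of Pgk1, 68% also occur in a transcript of another gene, and the figure is 67% for 100-base windows. Gapdh, the enzyme of the step before, averaged 3.89 CPM per kb with 82.5% of its 50-base windows shared. Eno1 shares 72.2% of its 50-base windows and 59% of its 100-base windows. Pkm shares 34.4% of its 50-base windows, Pfkp 17.1%, Ldha 16.6%, Aldoa 13.5%, Hk1 2.55% and Slc2a1 1.74%, and Slc2a3 and Hk2 share none. How reads from shared windows were counted is not stated, so the levels of Pgk1, Eno1 and Pkm relative to other genes are uncertain. The annotated Eno1 copy Eno1b was counted at 1.51 CPM on average. Aldoa overlaps Fam57b and Pfkp overlaps Pitrm1 on the opposite strand, and the library kit as named in the labels does not mark strand.

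All 10 are protein coding genes, placed here on GRCm38 from the GENCODE vM21 annotation. Slc2a1 (ENSMUSG00000028645) lies on chromosome 4 at 119108711 to 119137983 on the plus strand, and Eno1 (ENSMUSG00000063524) on the same chromosome and strand at 150236721 to 150248879. Slc2a3 (ENSMUSG00000003153) lies on chromosome 6 at 122727809 to 122801640 and Hk2 (ENSMUSG00000000628) at 82725025 to 82774454, both on the minus strand. Aldoa (ENSMUSG00000030695) lies on chromosome 7 at 126795234 to 126800751 on the minus strand, and Ldha (ENSMUSG00000063229) on the same chromosome at 46841475 to 46855627 on the plus strand. Hk1 (ENSMUSG00000037012) lies on chromosome 10 at 62268855 to 62379908 on the minus strand, and Pfkp (ENSMUSG00000021196) on chromosome 13 at 6579768 to 6648777 on the minus strand. Pkm (ENSMUSG00000032294) lies on chromosome 9 at 59656368 to 59679375 and Pgk1 (ENSMUSG00000062070) on chromosome X at 106187100 to 106203699, both on the plus strand.

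Many glycolytic genes are known targets of the hypoxia-inducible factors, whose binding sites often hold the letters ACGTG, and of Myc, whose E-box is CACGTG. RefSeq promoter windows (GRCm38.p6) were matched by symbol for 9 of the 10 genes, all but Slc2a3. The 250 bases before 1 start a gene were read, the start with the most coding transcripts. Where starts tied, as for Aldoa and Eno1, the window with the fewest annotated exon bases was taken, a rule chosen after the windows were seen. ACGTG was found on either strand in 5 of 9 genes, against 16.6% of 32851 windows of that length over all genes. With ties settled by the outermost start the count is 4 of 9, since that Aldoa window holds no match, and over all listed starts it is 6 of 9, against 18.5% of all genes. CACGTG, which holds ACGTG within it on both strands, was found in 1 of 9, against 6.02% of windows. The shares of windows count every listed start, and no share over all genes was matched for expression or base content. They are therefore not like for like with the 9 chosen windows, and no excess was tested. Windows are shown for Ldha, the most abundant of the 10, and for Hk2 and Aldoa, which moved in opposite directions between the CD25 gates (below). Capitals mark ACGTG or its reverse complement CACGT, and each window ends at the base before the RefSeq start.
Ldha, chr7:46845554-46845803, plus strand: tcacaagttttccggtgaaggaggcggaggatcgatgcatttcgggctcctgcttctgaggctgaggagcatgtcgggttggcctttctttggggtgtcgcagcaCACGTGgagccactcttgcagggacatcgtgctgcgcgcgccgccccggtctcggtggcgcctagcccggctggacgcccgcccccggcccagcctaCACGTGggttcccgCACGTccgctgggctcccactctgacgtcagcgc
Hk2, chr6:82774455-82774704, minus strand: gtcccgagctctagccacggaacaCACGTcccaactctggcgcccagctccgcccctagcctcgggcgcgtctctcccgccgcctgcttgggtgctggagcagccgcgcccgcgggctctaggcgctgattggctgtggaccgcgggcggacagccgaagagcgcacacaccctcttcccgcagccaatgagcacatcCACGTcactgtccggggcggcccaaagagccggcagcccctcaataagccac
Aldoa, chr7:126799255-126799504, minus strand: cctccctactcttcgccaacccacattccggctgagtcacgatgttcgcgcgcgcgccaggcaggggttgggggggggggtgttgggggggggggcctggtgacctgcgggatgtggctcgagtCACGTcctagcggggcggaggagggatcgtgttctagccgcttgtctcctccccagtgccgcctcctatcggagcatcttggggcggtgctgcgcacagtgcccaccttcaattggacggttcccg
The Ldha window holds 5 matches, where each of its 2 CACGTG counts as 2 matches, 1 on each strand. The Hk2 window holds 2 matches and the Aldoa window holds 1, with no CACGTG in either. A match is a run of letters and not a measured binding site.

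TG against WT. The comparison asks whether the glucose genes of Tregs differ when dendritic cells lack Atg5. None of the 10 genes differed between TG and WT at an adjusted p under 0.05, in CD25 High or in CD25 Low cells, without or with the block (edgeR, adjusted p = 0.999 or 1.00 for each). The background was the same: 0 of 11766 genes (0%) were called in either gate, and at an unadjusted p under 0.05 there were 99 genes (0.841%) in High and 48 (0.408%) in Low without the block. With the block these were 418 (3.55%) and 382 (3.25%). DESeq2 also called 0 of the 10 genes, and over all genes 0 in each gate without the block and 7 in High and 2 in Low with it. In the edgeR model Aldoa in CD25 Low with the block was the 1 case of the 10 genes with an unadjusted p under the 0.05 threshold. In bulk RNA, fewer cells of a type and less RNA per cell cannot be told apart.

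The log2 differences between TG and WT were small and mostly above 0. In CD25 High cells they ran from -0.07 for Slc2a1 to 0.26 for Hk2, with a median of 0.09 over the 10 genes and 0.011 over all genes tested. In CD25 Low cells they ran from 0.00 for Slc2a3 to 0.26 for Hk2, with a median of 0.08 over the 10 genes and 0.007 over all genes tested. Within the pairs of same-numbered CD25 High libraries, Hk1, Pfkp, Aldoa, Eno1, Pkm and Ldha were higher in TG in 3 of 3 pairs, as were 12.6% of all genes tested. In CD25 Low the genes higher in TG in 3 of 3 pairs were Hk1, Hk2 and Ldha, against 12.7% of all genes. Slc2a1 was lower in TG in 3 of 3 CD25 High pairs, as were 10.8% of all genes.

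Ldha shows how small the differences were. It stood at 816, 873 and 680.4 CPM in TG High replicates 1, 2 and 3, against 779, 768 and 649 CPM in WT High. In CD25 Low it stood at 853, 811 and 756 CPM in TG, against 768, 794 and 685 CPM in WT. The groups overlapped in both gates, and the library numbered 3 was the lowest of each group. With the block the log2 difference was 0.11 in High (SE 0.07, 95% interval -0.04 to 0.25) and 0.11 in Low (SE 0.07, -0.04 to 0.26).

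Hk1, which phosphorylates glucose as it enters, was the only gene of the 10 whose groups did not overlap between genotypes, and only in CD25 Low. It stood at 273, 262.5 and 280.5 CPM in TG Low replicates 1, 2 and 3, against 255, 261 and 239 CPM in WT Low, so that the libraries numbered 2 nearly met. Of all genes tested, 1.58% were higher without overlap in that comparison. In CD25 High it stood at 287, 317 and 268 CPM in TG, against 274, 280.3 and 256 CPM in WT, where the groups overlapped, while 1.98% of all genes were higher and 2.29% lower without overlap.

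The intervals of the fit with the block set how large a genotype difference these libraries could have hidden, if the numbers mark true pairs. The planned fit without the block, whose intervals are not given here, leaves the spread between numbers in its error. With the block, the 95% intervals of the 7 genes other than Slc2a3, Hk2 and Pgk1 lay between -0.23 and 0.31 on the log2 scale in both gates. Slc2a3 stood at 0.998-fold in High and 1.00-fold in Low, with log2 intervals of -0.19 to 0.18 in High and -0.18 to 0.19 in Low. For Pgk1 they ran from -0.38 to 0.43 in High and from -0.36 to 0.42 in Low. For Hk2, on its few counts, they ran from -0.40 to 0.84 in High and from -0.40 to 0.98 in Low. The difference of the genotype effects between gates was called for 0 of the 10 genes and 0 of 11766 (0%), with unadjusted p under 0.05 for 27 genes (0.229%) without the block and 118 (1.00%) with it. Averaged over the gates, a contrast chosen after seeing the data, the TG to WT difference was again called for none of the 10; the largest with the block were 0.26 for Hk2 (SE 0.22, adjusted p = 0.869) and 0.15 for Aldoa (SE 0.05, adjusted p = 0.582). That fit called 6 genes (0.0510%).

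Of 10 B cell markers none was called between TG and WT. Their estimated log2 differences were above 0 for 10 of 10 in both gates, with a median of 0.85 in High and 0.54 in Low with the block, beside 0.009 and 0.004 over all genes tested. Their summed level was 37.9 to 360 CPM in TG High, 34.2 to 201 CPM in WT High, 41.2 to 348 CPM in TG Low and 39.1 to 255 CPM in WT Low, with the highest library of each group being the one numbered 1. Their part in the small differences of the glycolytic genes was not tested.

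**Figure D2:**
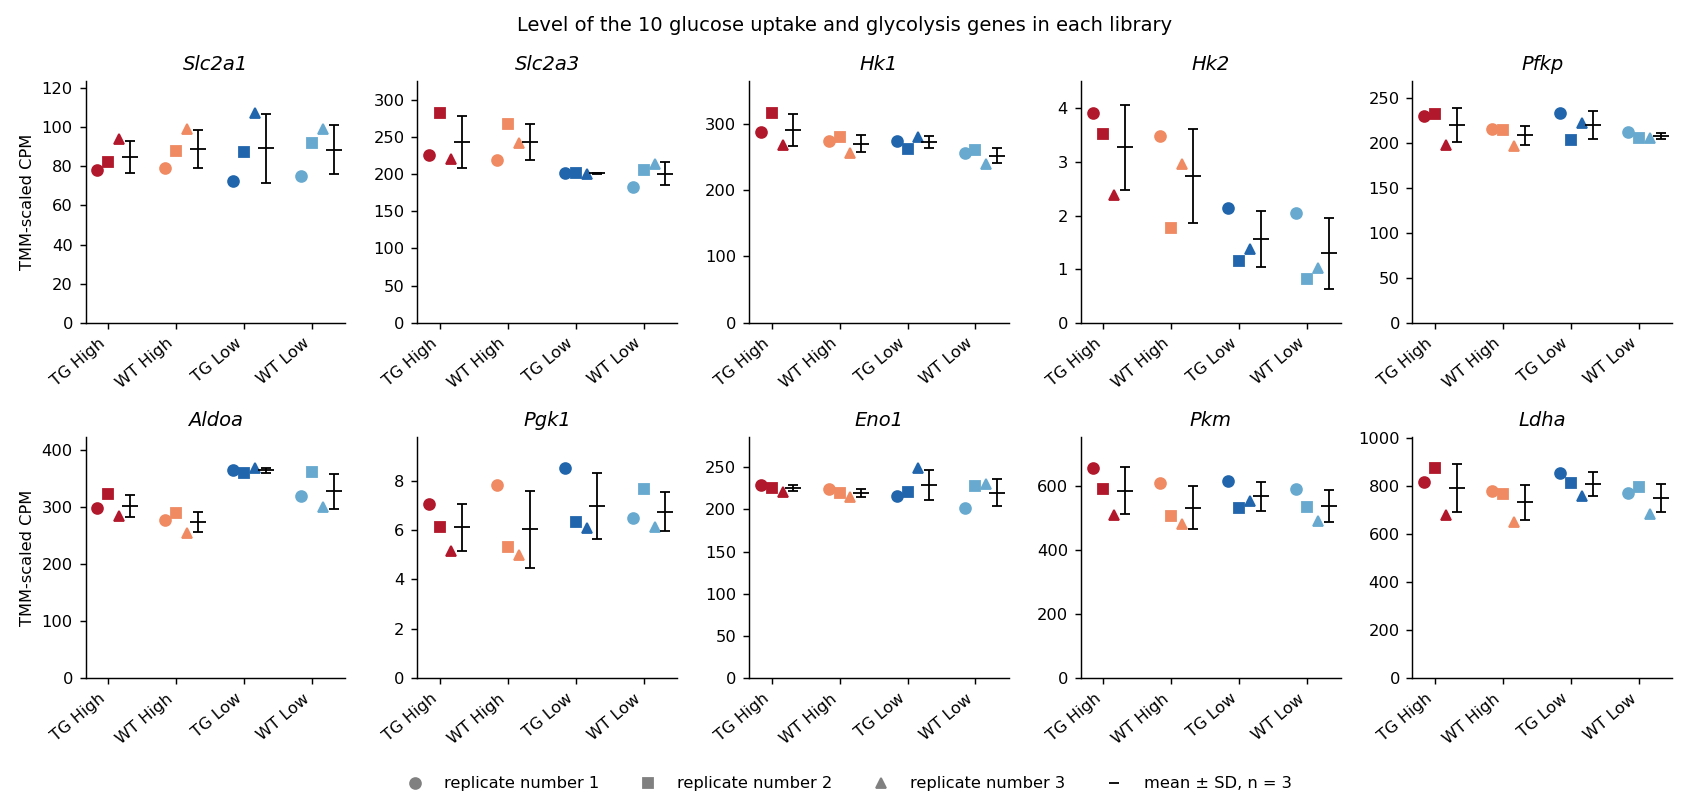
TMM-scaled CPM of the 10 genes in each library, by group, with symbols for replicate number and the group mean ± SD (n = 3) in black; each axis starts at 0. Slc2a3 and Hk2 stand higher and Aldoa lower in the CD25 High groups, while Slc2a1 is lowest in the libraries numbered 1 across all 4 groups.

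CD25 High against CD25 Low. The gates part cells by surface CD25, and the comparison gives the glucose genes that differ between them. Taken within a genotype, none of the 10 genes was called, without the block (adjusted p = 0.651 to 1.00) or with it (adjusted p = 0.0782 to 1.00), while the fit without the block called 1 gene (0.00850%) in TG and 6 (0.0510%) in WT and the fit with it 198 (1.68%) and 192 (1.63%). At an unadjusted p under 0.05 there were 578 genes (4.91%) in TG and 391 (3.32%) in WT without the block, and 1433 (12.2%) and 1085 (9.22%) with it. Of the 10 genes, Aldoa, Hk2 and Slc2a3 were among them in both genotypes and in both fits. Their estimates were close in TG and WT, and the gate difference was therefore also averaged over both genotypes, 6 libraries against 6, a contrast chosen after seeing the data. On that average, with the block, Hk2 and Slc2a3 were higher and Aldoa was lower in CD25 High, and the other 7 genes were not called. The background was 692 genes (5.88%), 383 higher (3.26%) and 309 lower (2.63%). Without the block the same average called none of the 10 and 61 genes (0.518%).

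Hk2 stood at 3.92, 3.52 and 2.39 CPM in TG High replicates 1, 2 and 3, against 2.15, 1.16 and 1.38 CPM in TG Low. In WT it stood at 3.48, 1.77 and 2.96 CPM in High, against 2.05, 0.818 and 1.03 CPM in Low. The TG groups did not overlap, as for 4.22% of genes higher in that comparison, and the WT groups did, since WT High replicate 2 lay below WT Low replicate 1. High exceeded Low in 6 of 6 same-numbered pairs. Over both genotypes Hk2 averaged 3.01 ± 0.81 CPM in High and 1.43 ± 0.55 CPM in Low (SD, n = 6 each), a 2.10-fold difference (log2 1.07, SE 0.22, 95% interval 0.61 to 1.54, edgeR adjusted p = 0.00702 with the block and 0.199 without it). The counts behind it were 23 to 74 in High and 15 to 42 in Low.

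Slc2a3 was the only gene of the 10 with all 6 High libraries above all 6 Low libraries, as 0.952% of all genes were. It stood at 225, 283 and 220.2 CPM in TG High, against 202, 201 and 200.3 CPM in TG Low. In WT it stood at 219, 268 and 242 CPM in High, against 183, 205 and 214 CPM in Low. The nearest libraries were WT High replicate 1 and WT Low replicate 3, and the highest was TG High replicate 2, the library with the fewest counts. Over both genotypes it averaged 243 ± 26.8 CPM in High and 201 ± 10.1 CPM in Low (SD, n = 6 each), or 1.20-fold (log2 0.27, SE 0.06, 0.14 to 0.40, adjusted p = 0.0154 with the block and 0.207 without it). Without TG High replicate 2 the log2 difference was 0.23 (adjusted p = 0.0248), and without WT Low replicate 1 or WT Low replicate 2 the call was lost (0.25, adjusted p = 0.0631, and 0.24, adjusted p = 0.0529).

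Aldoa went the other way. It stood at 299, 323 and 284 CPM in TG High, against 365, 359.5 and 368 CPM in TG Low. In WT it stood at 278, 289.7 and 255 CPM in High, against 319.7, 361 and 301 CPM in Low. High and Low did not overlap within either genotype, as for 3.84% of genes lower in TG and 4.37% in WT, although the highest TG High library lay above the lowest WT Low libraries. Over both genotypes it averaged 288 ± 22.6 CPM in High and 346 ± 28.2 CPM in Low (SD, n = 6 each; log2 -0.26, SE 0.05, -0.37 to -0.15, adjusted p = 0.00556 with the block and 0.121 without it), or 1.20-fold lower in High.

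The other 7 genes were not called in this average, and the interval of Pgk1, on 40 to 166 counts per library, was wide. Pgk1 was estimated at -0.19 (SE 0.13, -0.47 to 0.09) and Hk1 at 0.10 (SE 0.05, -0.02 to 0.21). For Slc2a1, Pfkp, Eno1, Pkm and Ldha the estimates ran from -0.04 to 0.01 and the intervals lay between -0.15 and 0.12 on the log2 scale. So the transporter Slc2a3 moved with the gate and the difference for its relative Slc2a1 was -0.03 (-0.15 to 0.09), and of the hexokinases Hk2 moved and Hk1 was estimated at 0.10. Of the 10 estimates 5 were above 0 and 5 below, and the median over all genes tested was 0.002.

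Without the 4 libraries numbered 1 the differences were as large (1.25 for Hk2, 0.30 for Slc2a3 and -0.27 for Aldoa), but none was called (adjusted p = 0.0723, 0.122 and 0.12), on 8 libraries and with 177 genes called in all. Markers of other cells moved with the gate: of 9 tested myeloid or dendritic cell genes 4 were called lower in High (median log2 -0.83), as were 5 of 11 genes of CD8 T or NK cells (median -0.33) and 1 of 10 B cell genes (median -0.39). The summed myeloid or dendritic markers ranged from 93.4 to 358 CPM in TG High, 95.2 to 212 CPM in WT High, 99.2 to 517 CPM in TG Low and 96.3 to 332 CPM in WT Low. The highest library of each group was the one numbered 1. Over both gates the libraries numbered 2 held 96.1 to 141 CPM and those numbered 3 held 93.4 to 99.2 CPM. The part of these cells in the glycolytic differences was not tested.

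**Figure D3:**
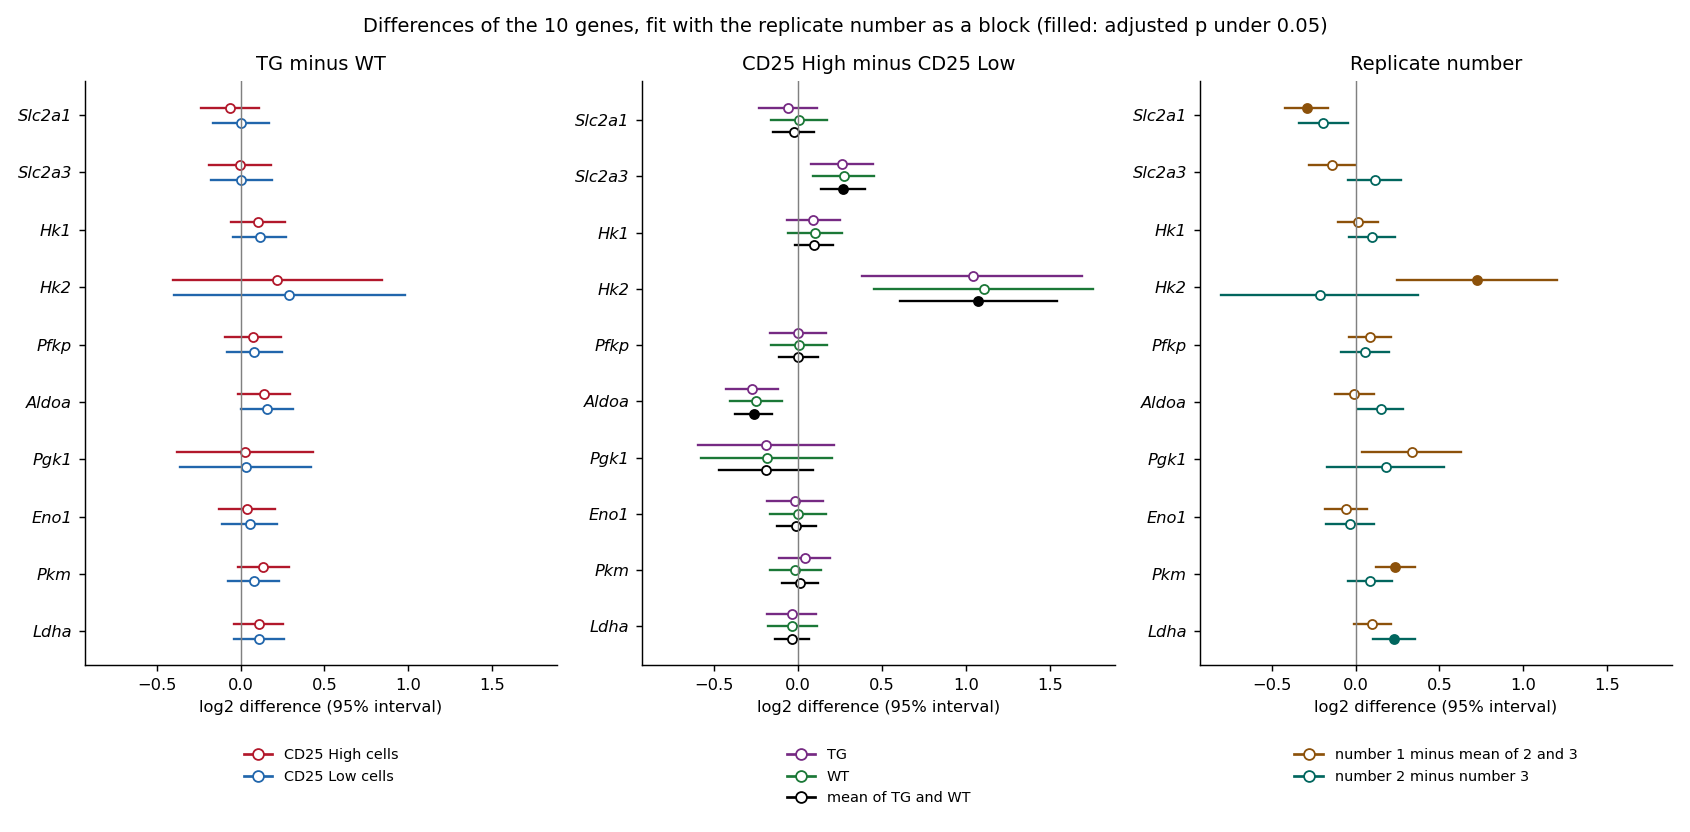
Log2 differences of the 10 genes with 95% intervals from the edgeR fit blocked on replicate number, for TG minus WT, CD25 High minus CD25 Low and the replicate numbers; filled points have an adjusted p under 0.05. The genotype intervals hold 0 for all genes except Aldoa in CD25 Low, Hk2 and Slc2a3 lie above and Aldoa below 0 in the gate average, and Slc2a1 lies below 0 for replicate number 1.

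Other genes of the pathway were read from 8 lists holding 98 genes besides the 10 and Foxp3, of which 82 were tested. In the gate average with the block 4 of the 82 were higher in High and 1 was lower (median log2 0.02), beside 3.26% and 2.63% of all genes, so the count is near the background; between genotypes 0 of 82 were called in either gate, without or with the block. Of 16 tested enzymes of the chain outside the 10, Eno3 was higher, the enolase known from muscle. It stood at 74.0, 36.9 and 62.2 CPM in TG High, against 30.7, 31.1 and 46.8 CPM in TG Low. In WT it stood at 74.6, 47.6 and 58.0 CPM in High, against 34.4, 28.4 and 39.2 CPM in Low, so that only the WT groups did not overlap. Its log2 difference was 0.73 (SE 0.12, adjusted p = 0.00317), while Eno1, the enolase with the higher level, was at -0.01 (SE 0.06, adjusted p = 0.953).

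Of 5 tested carriers of lactate and pyruvate, Slc16a3 was higher in High, the gene of the lactate exporter MCT4, at 0.38 (SE 0.09, adjusted p = 0.0234). Of 14 tested hypoxia-inducible factor targets outside glycolysis Ndrg1 was higher, a stress-responsive gene. It stood at 49.8, 45.2 and 53.1 CPM in TG High, against 36.5, 25.5 and 34.0 CPM in TG Low. In WT it stood at 50.8, 46.7 and 54.4 CPM in High, against 28.2, 24.1 and 30.3 CPM in Low, so that High and Low did not overlap in either genotype. Its difference was 0.76 (SE 0.07, adjusted p = 4.55e-06), and Ndrg1 alone of the 82 was also called without the block (0.75, adjusted p = 0.00818). Within a genotype and with the block, Ndrg1 was called in TG (0.63, adjusted p = 0.00254) and Ndrg1 and Eno3 in WT (0.88, adjusted p = 8.02e-05, and 0.81, adjusted p = 0.0311). Of 23 tested regulators, Foxp3 among them, Foxp3 was higher (0.47, SE 0.06, adjusted p = 8.46e-05). Myc, a transcription factor that raises glycolytic genes, was also higher (0.32, SE 0.07, adjusted p = 0.0147), and Egln1, the oxygen-sensing hydroxylase that marks Hif1a for destruction, was lower (-0.35, SE 0.09, adjusted p = 0.0372). No gene was called in the lists of other glucose transporters (3 tested), fructose 2,6-bisphosphate control (5), pyruvate dehydrogenase and its kinases (10) and the pentose phosphate pathway (7).

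Replicate number. Number 1 set the libraries apart more than genotype or gate did, and the 10 genes were compared across it with the 4 groups held constant. Between number 1 and the mean of numbers 2 and 3, Slc2a1 was lower and Hk2 and Pkm were higher in number 1, and the other 7 were not called. That is 3 of 10, beside 3239 of all genes tested (27.5%; 16.8% higher and 10.7% lower), so the count is near the background. The median log2 difference of the 10 genes was 0.05 and that of all genes -0.009.

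Slc2a1 had the clearest order. In the libraries numbered 1 it stood at 78.2, 79.4, 72.6 and 75.1 CPM in TG High, WT High, TG Low and WT Low, all below the other 8 libraries. Those numbered 2 stood at 82.4, 88.0, 87.4 and 91.7 CPM, and those numbered 3 at 93.8, 99.0, 107.5 and 99.1 CPM, in the same order of groups. The ranges of the 3 numbers did not overlap, and among all genes 3.10% were lower in number 1 without overlap. The log2 difference was -0.29 (SE 0.06, -0.42 to -0.16, adjusted p = 0.00198) for number 1 and -0.19 (SE 0.07, adjusted p = 0.0834) between numbers 2 and 3.

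Pkm averaged 617 ± 27.4 CPM in number 1, against 539 ± 35.8 CPM in number 2 and 508 ± 32.2 CPM in number 3 (SD, n = 4 each; log2 0.24, SE 0.05, 0.12 to 0.35, adjusted p = 0.00338). The lowest library numbered 1, at 588.9 CPM, lay just under the highest of the others, TG High replicate 2 at 589.5 CPM. Hk2 averaged 2.90 ± 0.94 CPM in number 1, 1.82 ± 1.20 CPM in number 2 and 1.94 ± 0.89 CPM in number 3 (log2 0.72, SE 0.22, 0.25 to 1.20, adjusted p = 0.0237). The Hk2 call was lost without any of 4 single libraries: TG High replicate 3, WT High replicate 1, TG Low replicate 1 or WT Low replicate 1 (adjusted p = 0.0525 to 0.108). Between numbers 2 and 3 Ldha was the 1 gene called, at 812 ± 44.9 CPM in number 2 and 693 ± 45.5 CPM in number 3 (log2 0.23, SE 0.06, adjusted p = 0.0213), beside 12.4% of all genes (6.43% higher and 5.99% lower); the call was lost without TG High replicate 3, WT High replicate 3, WT Low replicate 2 or WT Low replicate 3 (adjusted p = 0.0534 to 0.101).

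In the same contrast of number 1 against 2 and 3, genes of division and activation moved much further. All 20 cell cycle genes were called higher (median log2 2.33), as were 19 of 19 genes of activated or effector T cells (median 1.48). Markers of other cells were also higher: 10 of 10 B cell genes (median 3.46), 8 of 9 tested myeloid or dendritic cell genes (median 3.52) and 9 of 11 genes of CD8 T or NK cells (median 3.00, with 1 lower). Of 12 genes of naive or resting T cells 8 were lower. The part of these cells in the differences of Slc2a1, Pkm and Hk2 was not tested.

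**Figure D4:**
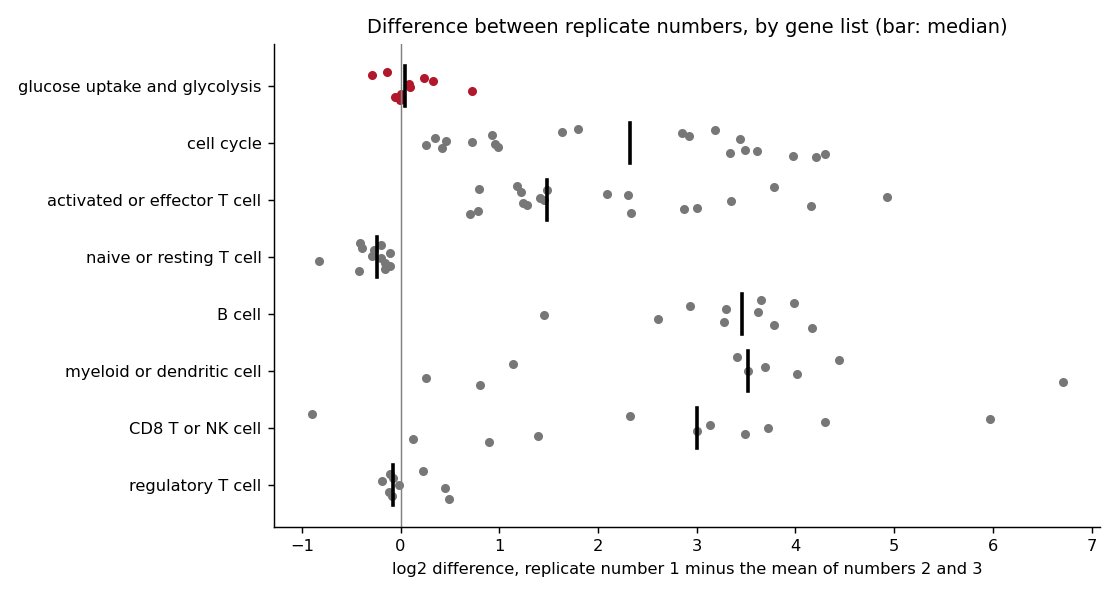
Log2 difference between replicate number 1 and the mean of numbers 2 and 3 for each tested gene of 8 lists (points) with the list's median (bar). The glucose uptake and glycolysis genes lie between -0.29 and 0.72 with a median of 0.05, while the cell cycle list has a median of 2.33.

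Among the 82 other pathway genes, 18 were higher and 9 lower in number 1. Of all genes tested 16.8% were higher and 10.7% lower, so these counts too are near the background, and the genes below are given for their own values. Of the enzymes, Tpi1, the triose phosphate isomerase, stood at 60.6 to 76.1 CPM in the 4 libraries numbered 1, against 34.6 to 43.8 CPM in the other 8 (log2 0.75, SE 0.06, adjusted p = 1.45e-07). Eno2, the enolase known from neurons, was 0.92 higher (SE 0.20, adjusted p = 0.00219), and Aldoc, the aldolase known from brain, 0.72 higher (SE 0.19, adjusted p = 0.00925). Adpgk, an ADP-dependent glucokinase, was the 1 enzyme of the list that was lower (-0.30, SE 0.06, adjusted p = 0.00224). Slc2a6, a transporter of leukocytes, was 2.13 higher (SE 0.36, adjusted p = 0.000261) at levels of 1.39 to 1.82 CPM in number 1. Slc2a8, another transporter of the same family, was 0.40 higher (SE 0.11, adjusted p = 0.0142). Slc16a3 was 0.52 higher (SE 0.10, adjusted p = 0.000722), as was Mpc2, a subunit of the mitochondrial pyruvate carrier, by 0.25 (SE 0.07, adjusted p = 0.0116).

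The regulators split. Irf4, a factor of T cell activation, was 1.45 higher in number 1 (SE 0.09, adjusted p = 3.02e-09), Egln3, a hydroxylase that acts on Hif1a, 0.88 higher (SE 0.17, adjusted p = 0.00100) and Hif1a itself 0.43 higher (SE 0.07, adjusted p = 0.000122). Txnip, whose protein restrains glucose uptake, was 0.47 lower on the log2 scale (-0.47, SE 0.06, adjusted p = 3.40e-05). Myc was lower too (-0.30, SE 0.08, edgeR adjusted p = 0.00883), as were Arrdc4 (-0.33, SE 0.11, adjusted p = 0.0451) and Foxo1 (-0.16, SE 0.05, adjusted p = 0.0297). Pdk1, a kinase that shuts pyruvate dehydrogenase, was also lower (-0.37, SE 0.07, adjusted p = 0.000994), and Pdk3, of the same family, was higher (0.46, SE 0.08, adjusted p = 0.000316). Pdp1, a phosphatase that reactivates pyruvate dehydrogenase, was lower (-0.26, SE 0.08, adjusted p = 0.0240). Of the hypoxia-inducible factor targets outside glycolysis, Anxa2 (1.32) and Fam162a (0.39) were higher and P4ha1 (-0.54) and Kdm3a (-0.30) lower. In the pentose phosphate pathway Rpia (0.67), Tkt (0.24) and Pgls (0.20) were higher in number 1.

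The split of each gene's variance over the 12 libraries, a description with no test, sorts the 10 genes. The replicate number held 87.6% of the variance of log2 CPM for Slc2a1, 72.5% for Pkm, 69.3% for Ldha and 53.6% for Pgk1. The CD25 gate held 60.3% for Hk2, 59.8% for Aldoa and 59.0% for Slc2a3, and at most 24.2%, for Hk1, among the other 7. Genotype held at most 30.5%, for Hk1. The medians over the 10 genes were 28.4% for number, 8.78% for gate and 13.1% for genotype, beside 40.5%, 5.64% and 3.12% over all genes tested.

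The 10 genes did not share 1 profile. After centring each on its own mean in log2 CPM, Hk1 and Pfkp lay nearest the mean profile of the 10, with a mean absolute difference of 0.0487 and 0.0505 over the 12 libraries, and Hk2 lay farthest at 0.522. The genes outside the 10 nearest to that mean profile, of 8435 compared, were Psmd2 (0.0351), Brcc3 (0.0380), Psme3 (0.0385), Itgb2 (0.0387) and Sdf4 (0.0389). The mean profile itself ran from -0.14 in WT Low replicate 3 to 0.17 in TG High replicate 2. It gave each gene equal weight, so Hk2 could move it most. The SD of log2 CPM was 0.71 for Hk2 and at most 0.24, for Pgk1, among the other genes of the 10.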

How the data were processed

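RNA was measured by sequencing in 12 libraries of sorted CD4 T cells, 3 in each of 4 groups taken from the sample titles. Per the labels' protocols, RNA was extracted on columns and 10 ng of it was amplified with a SMARTer Ultra Low kit, and Nextera XT is named for the libraries in the design text. The authors deposited raw counts of reads for each Ensembl gene, with no normalization. CASAVA 1.8.2, STAR 2.4 and featureCounts 1.4.6 with GRCm38 are named in the submitters' processing notes, with no settings given.

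Symbols, positions and exon lengths came from GENCODE vM21, which named 21628 of 21839 genes, and promoter windows from RefSeq. Counts were scaled by TMM, filtered with filterByExpr (minimum count 10; 11766 genes with 99.96% of the counts were kept) and tested with edgeR 4.0.16 in R 4.3.3 by robust quasi-likelihood fits over all 12 libraries. P-values were adjusted by Benjamini-Hochberg over all genes tested, at 0.05. SEs and 95% intervals come from the same fits and cover the spread between libraries. The test was also run on simulated data, with changes larger than most of those of the 10 genes, so that run does not speak to small differences. Chi-square per degree of freedom between libraries of a group was 21.03 or more, so no such pair agreed within sampling noise.

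Replicate numbers were checked as pairs from the correlation of each library's deviations from its group mean. Across groups, r was 0.340 to 0.830 in 18 pairs of the same number, against -0.688 to 0.197 in 36 pairs of different numbers. The numbers were therefore taken as pairs, on the evidence of the data and not of the labels. The fit without the block is the planned one and the fit with it is given beside it.

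The 10 genes, the 8 pathway lists and the marker lists were chosen with earlier results of these data known. The 10 genes are named in every comparison. Other pathway genes are named where they were called, up to 4 a list with the smallest p. For number 1 all called regulators are named. The likeness rule named the 5 nearest genes averaging 10 CPM or more. Comparisons averaged over gates or genotypes were chosen after seeing the data. Total counts ran from 6767828 to 23942479 per library. Alternatives were other scalings, DESeq2 1.42.0, no filter, only the groups compared, and leaving out libraries. A check of a further sort marker is not reported here.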

Additional observations from a re-analysis of the deposited data

How the results depend on the processing

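Over the alternatives run, no call of the 10 genes turned its direction. Every TG to WT count stayed at 0 of 10 genes under each scaling, DESeq2, no filter and each left-out library, with and without the replicate block. With the replicate block, the CD25 High to Low count went from 0 to 1 of 10 genes with DESeq2 in TG and in WT (Aldoa in both), to 2 in WT with only the groups compared (Slc2a3 and Aldoa), and to 0 to 1 in TG over single left-out libraries (1 without TG Low replicate 2, Aldoa). The average over TG and WT called 3 with the replicate block and 0 without the 4 libraries numbered 1, and 2 to 3 over single left-out libraries; without the block DESeq2 called 1 (Aldoa). Between numbers 2 and 3 the count of 1 became 2 with library totals alone, Slc2a1 being added, and 0 to 1 over single left-out libraries. The cause was not tested. The replicate block changed no other call of the 10 genes. Over all genes, without the block DESeq2 called 63 genes in TG and 46 in WT between the gates, against 1 and 6 with edgeR, and with the block 358 and 281, against 198 and 192. Only the groups compared gave 0 and 1 without the block, and 196 and 393 with it. Without the libraries numbered 1, 0 and 0 were called without the block and 39 and 49 with it. The average over TG and WT called 61 genes without the block (256 with DESeq2, 3 without the libraries numbered 1) and 692 with it (177 without those libraries). The TG count without the block was 2 with upper-quartile scaling or library totals and 3 with no filter. Single left-out libraries gave 0 to 3 in TG and 0 to 7 in WT without the block, 647 (without TG Low replicate 3) to 1368 between numbers 2 and 3, and 2081 (without TG Low replicate 1) to 3958 for number 1. Hk2 rests on 15 to 74 counts a library and Pgk1 on 40 to 166, which limits both.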

Other observations

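Values that stood in no comparison above: Hk3, a hexokinase of myeloid cells, averaged 0.136 CPM per kb over the 12 libraries, on 0 to 34 counts. Ldhb, which makes the heart-type subunit of lactate dehydrogenase, averaged 37.8 CPM per kb, and Bsg, the chaperone of the lactate carriers, 106.1 CPM per kb. Between replicate numbers 2 and 3, the share of lower genes among the 82 other pathway genes was above that of all genes, which was not tested. Higher in number 2 were 7 of the 82 and lower were 9, beside 6.43% and 5.99% of all genes. Among them P4ha1 was 0.67 higher on the log2 scale (SE 0.09, edgeR adjusted p = 0.000205), Prkaa1, a catalytic subunit of the energy sensor AMPK, 0.38 higher (SE 0.08, adjusted p = 0.00693), and Eno2 was lower (-1.09, SE 0.24, adjusted p = 0.00904), as was Myc (-0.44, SE 0.09, adjusted p = 0.00514). By the same fit Hif1a (0.25), Pgam1 (0.87) and Anxa2 (0.44) were higher in number 2, and Ldhb (-0.33), Eno3 (-0.51), Mpc2 (-0.29), Pfkfb1 (-0.81), Pdk2 (-0.32), Tkt (-0.21) and Ndrg1 (-0.30) were lower, with edgeR adjusted p = 0.0208 to 0.0447.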
